A study of Mus musculus with 137 samples.

Results

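The group described here is 16 single mouse embryos at the 2-cell stage that were cultured in the drug's solvent alone, out of 137 embryos in the series. They carry the label DMSO in experiment 1, where 19 libraries do; numbers 6, 13 and 16 were left out. The embryos were of the B6129F1 strain, taken as zygotes 5 hours after fertilization and kept in KSOM culture medium in wet chambers with no oil layer. From 6 hours after fertilization the medium held 0.1% DMSO. The embryos set beside them had 10 µM SR1848, a drug that inhibits the transcription factor NR5A2. They were 16 of experiment 1 (without number 8) and 24 of experiment 2. Polyadenylated RNA of each embryo was made into a library by SmartSeq2 with oligo-dT priming, and the series addresses activation of the zygotic genome by NR5A2. The labels do not say which embryos share parents, so each p below measures the spread between embryos.

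At the 2-cell stage the mouse embryo passes from mRNA that the oocyte stored to mRNA that its own genome makes. Oocyte transcripts are degraded in waves while a burst of transcription starts genes for ribosome production and a set of transcripts that are largely restricted to this stage. SmartSeq2 copies the RNA of a whole embryo before sequencing, and a single embryo cannot be measured again.

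The 16 libraries held 4748649 to 9317721 counts and 16037 to 17441 genes with a count. Those left out stand apart, with 100883 counts and 1152 genes (number 6), 335139 and 2907 (number 13) and 1644926 and 5742 (number 16). Nr5a2, the target of the inhibitor, had a lowest, median and highest level of 89.3, 115 and 182 CPM (counts scaled to the size of the library). No embryo held more than 0.765 CPM of the GFP sequence in the table. The 2-cell label was read against its transcripts: Obox6, Trim43b and Dppa4 led the 2-cell list, and 52 of its 56 members averaged at least 1 TPM. Markers of other cells were read as well. Cumulus and granulosa markers summed to 38.8 to 143 CPM, with Inha, Fshr, Foxl2 and Ptx3 at 0 and Amhr2 the leader (78.5). A longer list of 19 such genes, which adds Gja1 (26.5 to 284 CPM, of high spread) and Kitl among others, summed to 89.8 to 364 CPM. Spermatid markers summed to 102 to 295 CPM, with Tnp1 and Tnp2 at 0 and Odf2 the leader (127). Blood and epithelium markers summed to 99.2 to 320 CPM, with Hbb-bs, Krt5 and Krt14 at 0 and Epcam the leader (173).

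The most abundant mRNAs came from the mitochondrial genome. Levels between genes are given per transcript length, as TPM (counts divided by length and rescaled), which are shares of a library and do not show how much RNA an embryo held. The 13 mitochondrial mRNAs, which encode subunits of the respiratory chain and of ATP synthase, made up 11.8 ± 2.21% of TPM (SD, n = 16; 8.43% to 16.9%), and 10 of them were among the 20 highest genes. mt-Atp6, a subunit of ATP synthase, had a lowest, median and highest level of 16052, 24467 and 41241 TPM. mt-Cytb, the cytochrome b of complex III, averaged 24998 ± 4745 TPM (SD, n = 16), and mt-Nd1 of complex I averaged 12729 ± 3318 TPM (SD, n = 16). The difference between mt-Atp6 and mt-Cytb was within the SD of both, and both lay above mt-Nd1 by more than those SDs.

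Among nuclear genes the highest was Hddc3 (chromosome 7, 80343104 to 80350547 on GRCm38), a hydrolase of the HD domain family, with 6445, 9009 and 12761 TPM as its lowest, median and highest level. Omt2b and Omt2a, a pair of oocyte transcripts on chromosome 9, averaged 6235 ± 2313 and 4644 ± 1562 TPM (SD, n = 16 each). Dppa3, the maternal protein that protects DNA methylation in the zygote, averaged 5761 ± 890 TPM (SD, n = 16). The 16 embryos overlapped among these maternal transcripts, and the SDs of Omt2b, Dppa3 and Omt2a reach across the differences between neighbours in that order.

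The rest of the 15 highest nuclear genes served many parts of the cell. Map1lc3b, the LC3 protein of autophagosomes, averaged 4218 ± 745 TPM, and Tmem41b, an endoplasmic reticulum protein needed for autophagosome formation, 3923 ± 399 TPM (SD, n = 16 each). Rpl41 of the large ribosomal subunit had 3934 ± 729 TPM, Ubb, a polyubiquitin gene, 2096 ± 251 TPM, and Eif4e, the cap-binding protein of translation, 2073 ± 304 TPM (SD, n = 16 each). Cell division was represented by cyclin B1, Ccnb1, at 2615 ± 434 TPM and by Cks2, a partner of cyclin-dependent kinases, at 2154 ± 607 TPM (SD, n = 16 each). Mdm4, an inhibitor of p53, had 2261 ± 691 TPM (SD, n = 16). Of these genes Tmem41b varied least between embryos (coefficient of variation 10.2%) and Omt2b most (37.1%).

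The X-linked Prps1, which makes the sugar phosphate used for nucleotides, had 1661, 2291 and 4799 TPM as its lowest, median and highest level, a coefficient of variation of 35.4%. The symbols Hexdc (3220 ± 689 TPM) and Olfr624 (2975 ± 676 TPM; SD, n = 16 each) completed the list. For Hexdc, named for a hexosaminidase, 99.4% of counts were on Hexdc-205, a transcript of 3921 bases that GENCODE lists as processed and not as coding. Olfr624, named for an olfactory receptor, has a transcript of 5731 bases. Another 5 genes at these levels have predicted or pseudogene symbols and are not named by the rule used here.

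**Figure D1:**
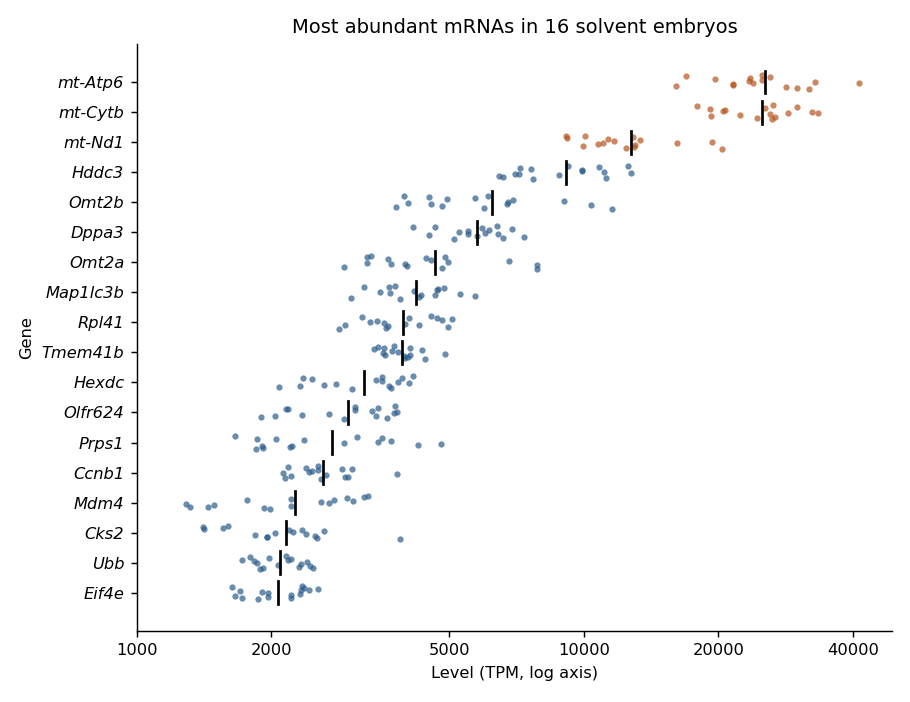
Level of the 3 highest mitochondrial mRNAs (orange) and the 15 highest named nuclear genes (blue) in TPM on a log axis; each point is 1 of 16 embryos and each bar is the mean. The points of mt-Atp6 run from 16052 to 41241 TPM, those of Hddc3 from 6445 to 12761 TPM and those of Tmem41b from 3394 to 4904 TPM.

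Transcripts were spread over many genes. The 10 highest genes held 12.0 ± 2.13% of TPM and the 100 highest 29.2 ± 2.37% (SD, n = 16); with mitochondrial genes left out, the shares were 5.68 ± 0.475% and 21.0 ± 1.08%. On average 14104 genes had at least 1 TPM, 2004 at least 100 and 103 at least 1000. By groups, maternal transcripts made up 3.54 ± 0.657% of TPM, ribosomal proteins 3.42 ± 0.566% and genes of nucleolus and ribosome biogenesis 1.39 ± 0.113% (SD, n = 16). The 2-cell list held 0.672 ± 0.0971% (SD, n = 16). Its leaders were the homeobox gene Obox6 (971 ± 108 TPM), the tripartite motif gene Trim43b (808 ± 234 TPM), whose copies share reads, and Dppa4 (676 ± 196 TPM; SD, n = 16 each). Among lineage factors Dppa5a had 1523 ± 680 TPM and Klf17, a Kruppel-like factor, 1250 ± 234 TPM (SD, n = 16 each). Replication-dependent histones, whose mRNAs mostly lack a poly(A) tail, held 0.0113 ± 0.00356% (SD, n = 16).

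Spread between embryos was measured for 8321 genes with a mean of at least 3 on the log2 CPM scale. The median SD was 0.533 on that scale; the lowest 10% of genes had an SD under 0.313 and the highest 10% one over 0.944. Spread was lower at higher levels: the median SD was 0.707 for means of 3 to 5, 0.484 for 5 to 7, 0.369 for 7 to 9 and 0.327 from 9 up. Counting error alone would give medians of 0.142, 0.0751, 0.0413 and 0.0215 in those bins, and only Vmn2r120 had a variance within 2 times its counting variance. Counting error covers the sampling of reads only, since the protocol has no molecular identifiers, so loss of molecules in the library step is part of the spread.

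Each gene was then set against the trend of variance on mean. A gene is called high in spread at a distance of at least 2 above the trend of log2 variance (4 times the variance) and low at a distance of -1 or less. High spread was found for 239 genes (2.87% of those measured) and low spread for 1103 (13.3%). The bounds fall in a continuous range: Zcchc4 lay just inside the upper bound at 2.0009 and Cdk4 just outside at 1.995. Of the 239 genes, 56 were at 0 in at least 1 embryo and 183 had a count in all 16. For 102 of them the distance stayed at 2 or more whichever embryo was left out, and 137 (57.3%) lost it without some embryo. Embryo 2 was the lowest of the 16 for 34 of the 239 genes, and 40 genes lost the call without it, the highest number for any embryo. With the median absolute deviation in place of the variance, 321 genes had high and 1474 low spread, of which 136 were among the 239 and 677 among the 1103.

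**Figure D2:**
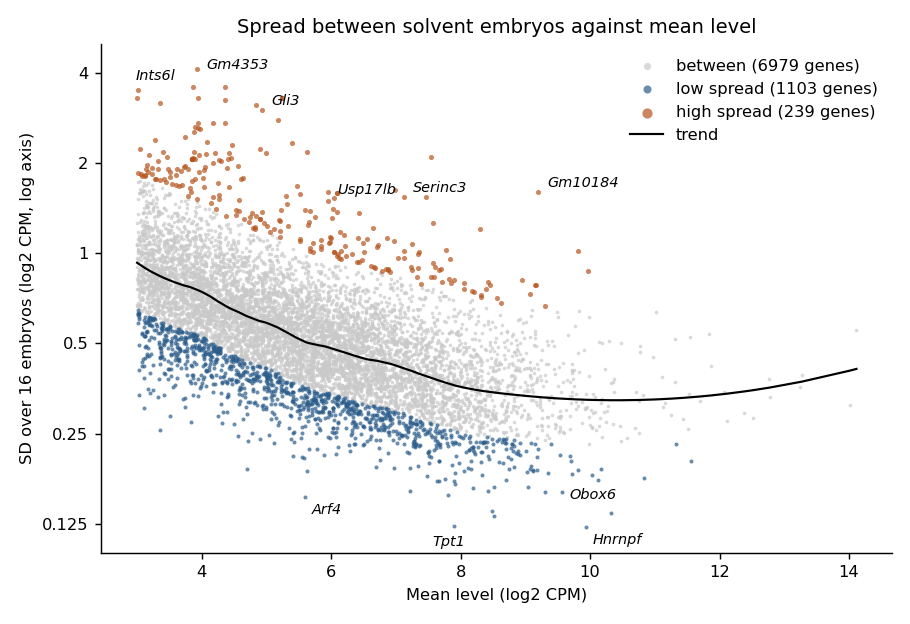
SD over 16 embryos (log2 CPM, log axis) against mean level (log2 CPM) for 8321 genes; the line is the trend, orange points are 239 genes of high spread and blue points 1103 of low spread. Arf4, Tpt1 and Hnrnpf lie far below the line, and Gli3, Ints6l and Serinc3 far above it.

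The named gene of highest spread for its mean was Gli3 (ENSMUSG00000021318, chromosome 13, 15463235 to 15730026 on GRCm38), a transcription factor of Hedgehog signalling. It was at 0 CPM in embryo 19, 0.189 in embryo 1 and 2.11 in embryo 18, while the other 13 lay between 41.1 and 130 CPM. Its distance from the trend was 4.69 on the log2 scale, and 4.33 at least without any 1 embryo. Gli3 was therefore either at most 2.11 CPM or at least 41.1 CPM. Parp8, an ADP-ribosyltransferase, also had a gap, with 12 embryos at 3.59 to 6.31 log2 CPM and the other 4 at or below -0.99. Calhm3, a channel subunit, had a gap of 2.84 on the log2 scale between 12 embryos above and 4 below.

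Serinc3, a membrane protein that moves lipids, was abundant and still split. Its lowest, median and highest levels were 25.1, 225 and 417 CPM: 5 embryos (1, 2, 7, 18 and 19) had at most 43.7 CPM and the other 11 at least 162 CPM. The distance was 3.80. No embryo was near 0, unlike Gli3.

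Other genes of high spread ran over wide ranges. Kank4, a cytoskeletal adaptor, ran from 1.4 to 273 CPM with a median of 85.8 (distance 4.24). Ints6l, an X-linked relative of an Integrator subunit, ran from 0 to 198 CPM with a median of 37.2 and was at 0 in 3 embryos (distance 4.47). Gcm1, a transcription factor of trophoblast, ran from 0.999 to 118 CPM with a median of 32.8 (distance 3.28). Plbd1, a phospholipase B-like protein, ran from 0 to 120 CPM (distance 3.61), and the X-linked genes Maged1 and Rnf128, a ubiquitin ligase, from 0 to 100 and 0 to 62.1 CPM (distances 3.65 and 3.29).

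Others owed much of their distance to 1 embryo. Sec1, a fucosyltransferase, had 0 CPM in embryo 17 and 9.74 to 156 CPM in the rest; its distance of 4.27 was 2.25 without embryo 17. Gemin4, of the SMN complex that assembles spliceosomal particles, was 3.82 and 2.06 without embryo 3. Mum1l1 was 3.64 and 2.48 without embryo 4.

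**Figure D3:**
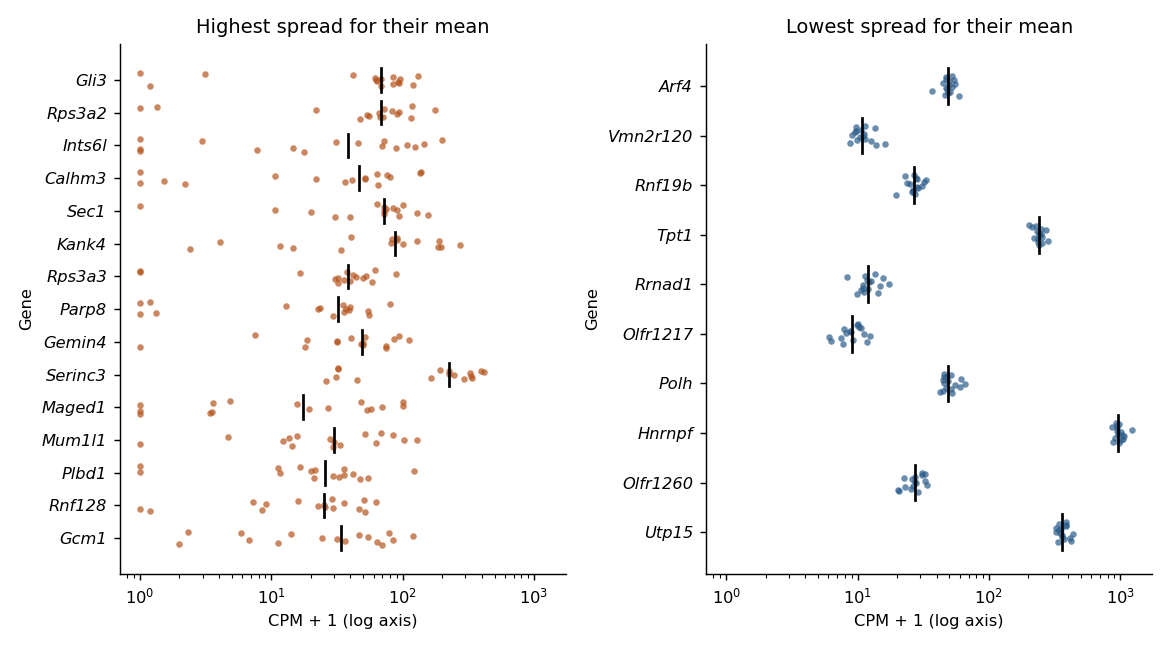
CPM + 1 on a log axis for the 15 named genes of highest spread (orange, left) and the 10 of lowest spread (blue, right); each point is 1 of 16 embryos and each bar is the median. Gli3 runs from 0 to 130 CPM with 3 embryos near 0, while Arf4 stays between 36.1 and 57.8 CPM.

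At the other end, the 16 embryos held nearly the same share of some mRNAs. Arf4, a small GTPase of vesicle traffic, had 36.1, 47.8 and 57.8 CPM as its lowest, median and highest level (distance -3.45). Tpt1, the abundant growth-related protein TCTP, had 200, 239 and 279 CPM (distance -3.12). Hnrnpf, a splicing regulator, had 871, 962 and 1230 CPM (distance -2.83), and Utp15, which processes ribosomal RNA in the nucleolus, 324, 360 and 437 CPM (distance -2.75). In each of these 4 genes the lowest and the highest embryo lay close to the median on both sides.

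Rnf19b, a ubiquitin ligase (18.7 to 32.0 CPM, distance -3.39), Polh, the DNA polymerase that copies past ultraviolet damage (41.3 to 64.9 CPM, distance -2.85), and Rrnad1 (7.25 to 16.5 CPM, distance -3.00) were also steady. The named 10 included 3 receptor symbols at low levels: Vmn2r120 (7.84 to 15.2 CPM), Olfr1217 (5.06 to 11.4 CPM) and Olfr1260 (19.3 to 32.8 CPM). Of 45 olfactory and vomeronasal receptor genes measured, 25 had low spread (55.6%, against 13.3% of all genes) and 1 had high spread. These genes encode sensory receptors of the nose.

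Spread differed between groups of genes in kind as well as in size. Transcripts restricted to the 2-cell stage tended to lie above the trend. Of 38 measured, 6 had high spread (15.8%) and 1 low, with a median distance of 1.12 against -0.06 for all genes. Usp17lb, a deubiquitinase of a multicopy family, had 15.2, 62.6 and 463 CPM as its lowest, median and highest level, and Zfp352, a zinc finger gene of the 2-cell stage, 2.26, 55.6 and 135 CPM. Pramef25, Tdpoz5, Tdpoz1 and BB287469 were the others of high spread. By the measure of copies given below, Zfp352 and these others have near-identical copies, which share reads, and Usp17lb has none. Whether shared reads add to the spread of the list was not tested. Obox6 had the lowest distance of the list (-2.06), at 625, 780 and 938 CPM, and Zscan4a (-0.45), Ubtfl1 (-0.30), Pramef12 (-0.14) and Zscan4d (-0.11) also lay below the trend.

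Maternal transcripts had 9 of high and 2 of low spread among 76 measured (11.8% and 2.63%, against 2.87% and 13.3% of all genes; median distance 0.77). Ddx4, the germ cell RNA helicase, ran from 6.99 to 123 CPM with a median of 72.6. Bcl2l10, an apoptosis regulator of oocytes, ran from 56.7 to 595 CPM with a median of 122, and Btg4, which brings the deadenylase to maternal mRNA, from 111 to 771 CPM with a median of 378. Zar1l was low in spread (distance -1.12). Imprinted genes had 2 of high spread among 13 (15.4%, against 2.87% of all genes), Gab1, a signalling adaptor, and Phlda2, a restraint on placental growth. The p53 list had 2 of 12 (16.7%), Plk2 and Sesn2, and the heat shock list 2 of 27 (7.41%), the chaperone genes Hspa8 and Dnaja1.

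Groups of the shared machinery of cells had few genes of high spread, and the share of low spread was above that of all genes (13.3%) in some of them. None of 53 nuclear oxidative phosphorylation genes had high spread and 14 had low (26.4%; median distance -0.67), with Ndufa6 of complex I lowest (-2.06). The spliceosome gave 0 high and 8 low of 42 (19%; median -0.59; Lsm6 -2.31) and the proteasome 0 and 7 of 33 (21.2%; median -0.17; Psmb2 -2.22). The share of low spread was near or under that of all genes in the rest. Nucleolus and ribosome biogenesis gave 0 high and 7 low of 53 (13.2%; median -0.18; Utp15 -2.75), ribosomal proteins 1 and 7 of 78 (8.97%) and mitochondrial mRNAs 0 and 1 of 13 (7.69%). Of 46 cell cycle genes 1 had high spread, Plk1, a mitotic kinase (116 to 546 CPM), and 5 had low (10.9%), among them Cdk1 (451 to 776 CPM). These lists were chosen with results of these embryos known, so the counts describe them and are not a test.

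Near-identical copies were common among genes of high spread. A gene of which at least 50% of the main transcript matched another gene at 95% identity or more was counted as having a copy. That held for 85 of the 239 (35.6%), 91 of 1102 of low spread with a sequence (8.26%) and 755 of 8319 in all (9.08%). Among protein-coding genes the shares were 24.4% of those of high spread and 7.31% of all, and 42 of 252 pseudogenes had high spread (16.7%) against 197 of 8053 protein-coding genes (2.45%). Of the 239 genes 13 had the same mean and variance as another gene. Gm12624 and Gm12614 on chromosome 11, for instance, listed the same CPM in every embryo, 0 to 229.

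The ribosomal pseudogenes show how small the difference between copies can be. Rps3a2 and Rps3a3 are processed copies of Rps3a1, the gene of a small ribosomal subunit protein; Rps3a2 matched it at 788 of 792 bases (99.5%) and Rps3a3 at 786 of 795 (98.9%). Gm8730 and Gm9625 are copies of Rplp0, a protein of the ribosomal stalk, at 98.7% and 97.5%. The stretches below, of 90 bases on the transcript strand of GRCm38, are shown because they hold the densest differences; capitals in the first of each set mark positions where any copy differs, and capitals in the others mark their own differing bases. The first set lies in Rps3a1 (chr3:86137940-86142702, minus strand, from coding base 579), Rps3a2 (chr14:88123017-88123808, minus strand) and Rps3a3 (chr13:108670603-108671397, plus strand). The second lies in Rplp0 (chr5:115559467-115563727, plus strand, from coding base 214), Gm8730 (chr8:102864845-102865798, minus strand) and Gm9625 (chr13:67810246-67811200, plus strand).
Rps3a1: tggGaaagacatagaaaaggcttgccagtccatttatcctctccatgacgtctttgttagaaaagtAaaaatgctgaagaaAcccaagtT
Rps3a2: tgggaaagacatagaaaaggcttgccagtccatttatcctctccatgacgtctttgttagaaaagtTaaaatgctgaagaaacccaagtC
Rps3a3: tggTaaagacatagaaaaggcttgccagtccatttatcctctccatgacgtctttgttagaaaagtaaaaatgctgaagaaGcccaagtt
Rplp0: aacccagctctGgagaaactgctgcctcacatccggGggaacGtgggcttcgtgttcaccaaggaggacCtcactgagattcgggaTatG
Gm8730: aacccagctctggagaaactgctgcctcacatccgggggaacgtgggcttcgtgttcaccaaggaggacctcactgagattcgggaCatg
Gm9625: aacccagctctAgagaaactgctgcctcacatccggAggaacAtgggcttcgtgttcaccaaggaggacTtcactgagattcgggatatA

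Rps3a2 was at 0 CPM in embryo 17 and under 1 CPM in embryo 18, and had 20.7 to 174 CPM in the other 14. Rps3a3 was at 0 CPM in the same embryos, 17 and 18, and had 15.5 to 88.6 CPM in the rest. Rps3a1 itself had 29.4, 163 and 275 CPM as its lowest, median and highest level and was lowest in embryos 19, 10 and 2, not in 17 and 18. In embryos 19, 10 and 2 Rps3a2 stood at 6.87, 6.53 and 6.85 log2 CPM, above its median of 6.09. In 17 and 18 Rps3a1 stood at 7.74 and 8.07, above its median of 7.35. In those embryos a copy was high where the parent was low, or the reverse, while embryo 8 was above the median in both (7.94 and 6.48). Such copies share reads, and whether that sets these levels was not tested.

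Gm8730 and Gm9625, which were chosen after their values were seen, split the embryos alike. In embryos 2, 3, 4, 7, 8, 9, 10, 11 and 18 Gm8730 had 57.8 to 131 CPM and Gm9625 at least 61.2 CPM, while in the other 7 Gm8730 had 0.347 to 6.01 CPM and Gm9625 0.819 to 3.59 CPM. No embryo lay between. Rplp0 ran from 764 to 2290 CPM with a median of 1220.

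Gaps of this kind were searched for in all measured genes. A gap of at least 2 on the log2 scale with at least 4 embryos on each side was found in 10 genes. All were of high spread, which such a gap favours by itself. None was on the X chromosome, but X-linked genes were only 239 of the 8321 measured, so this is no result about X. A near-identical copy was known for 7 of the 10, against 9.08% of all genes and 35.6% of those of high spread. The embryos above the gap formed 9 different sets. Gm10184, the most abundant, had at least 1090 CPM in 9 embryos and at most 208 CPM in the other 7. Rps13-ps1, a pseudogene of Rps13, had at least 38.6 CPM in 9 embryos and at most 6.43 in 7. Rbm45, an RNA-binding protein with no such copy, had at least 5.07 log2 CPM in 12 embryos and at most 2.96 in 4. In embryos labelled SR1848 the largest gaps of the 10 genes ran from 0.0 to 3.33 in experiment 1 and from 0.38 to 2.45 in experiment 2. All 10 had a lower mean in experiment 1 than in solvent embryos. The gaps of 0.0 belong to Gm4353 and Calhm3, with means there of -1.93 and -1.86 log2 CPM, against 3.92 and 3.95. Gm8730 and Gm9625 had means of 3.52 and 3.38, against 4.17 and 3.97. A small gap near the lowest level does not show that embryos no longer split. In experiment 2 the means of Gm8730 and Gm9625 were 4.28 and 4.15, above those in solvent embryos. Gm10184 had means of 6.59 and 7.1 in experiments 1 and 2, against 9.2. Gm6176, a predicted gene of chromosome 7, kept a gap of at least 2 in both (3.33 and 2.17, against 5.24 in solvent embryos), and Gm4353 in experiment 2 (0.0 and 2.45, against 5.60). Parp8 had 1.55 and 1.64. The gaps were 0.83 and 0.69 for Gm8730, 0.81 and 1.07 for Gm9625, and 0.39 and 0.38 for Gm10184.

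X-linked genes were wider in spread than autosomal genes. High spread was found for 23 of 239 X-linked genes (9.62%, median distance 0.80) and for 216 of 8064 autosomal genes (2.68%, median -0.08), and low spread for 5 (2.09%) and 1096 (13.6%). The labels do not give the sex of the embryos, so the summed level of 3 Y-linked genes was read in each. Usp9y, a deubiquitinase, Eif2s3y, a translation factor subunit, and Ddx3y, a helicase, summed to 19.1 to 62.1 CPM in embryos 1, 2, 3, 4, 5, 12, 14, 15 and 19. In embryos 7, 8, 9, 10, 11, 17 and 18 the sum was 0 to 1.16 CPM, from at most 6 counts. No embryo lay between these ranges.

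The median X-linked gene moved with that level. Relative to each gene's mean, the median X-linked gene stood at -0.454 to -0.125 on the log2 scale in the 9 embryos with Y-linked mRNA and at 0.374 to 0.547 in the 7 others. The median autosomal gene stayed between -0.003 and 0.093 in all 16. Mouse embryos with a pair of X chromosomes silence the paternal one in the days after the 2-cell stage, and those with a Y chromosome carry 1 X; both are background and were not tested here.

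**Figure D4:**
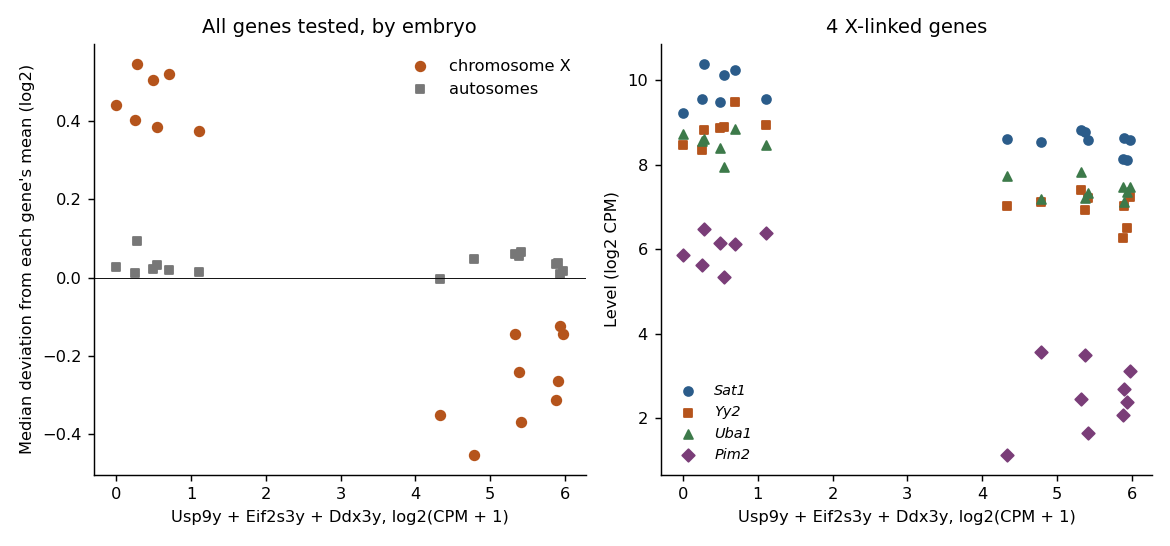
Left, median deviation of X-linked genes (circles) and autosomal genes (squares) from each gene's mean, on the log2 scale, against the summed level of 3 Y-linked genes as log2(CPM + 1); right, log2 CPM of 4 X-linked genes against the same level; each point is 1 embryo. The X-linked medians lie at 0.374 or more in 7 embryos and at -0.125 or less in 9, and Yy2 and Pim2 do not overlap between them.

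In a regression of every gene on the Y-linked level across the 16 embryos (edgeR's quasi-likelihood test, Benjamini-Hochberg adjustment over 9119 genes), 41 genes fell as the Y-linked level rose (0.45% of those tested) and 1 rose (0.011%). All 41 were X-linked, 41 of 253 X-linked genes tested (16.2%), and none of 8847 autosomal genes passed. Slopes were below 0 for 92.9% of X-linked and 46.9% of autosomal genes. The count was 27 without embryo 8 and 26 without embryo 11, and 81 with DESeq2. This covariate was chosen after the first results were seen.

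The steepest of the named falls was that of Pim2, a survival kinase, with 2.00, 11.4 and 88.8 CPM as its lowest, median and highest level. Its slope was -0.65 log2 CPM per unit of log2 Y-linked CPM (SE 0.0718, adjusted p = 1.88e-05 by edgeR). Yy2, a zinc finger factor, had 75.8, 159 and 719 CPM and a slope of -0.37 (SE 0.0388, adjusted p = 1.72e-05 by edgeR). For both genes each of the 7 embryos with little Y-linked mRNA lay above each of the 9 others. Sat1, which breaks down polyamines, had 274, 441 and 1340 CPM and a slope of -0.26 (SE 0.0332, adjusted p = 0.000229 by edgeR). Ids, a lysosomal sulfatase (-0.35), Wnk3, a kinase of ion transport (-0.27), Atp7a, a copper pump (-0.26), Wdr44 (-0.24) and Kif4, a mitotic kinesin (-0.23), followed.

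Genes with a partner on the other sex chromosome were among those read. Eif2s3x, the X partner of Eif2s3y, had a slope of -0.22 (adjusted p = 0.000355 by edgeR), as had Uba1, the ubiquitin-activating enzyme (-0.22, adjusted p = 0.000355 by edgeR). The abundant Prps1 fell too, with a slope of -0.18 (adjusted p = 0.00154 by edgeR). Uty, a demethylase-like gene of the Y chromosome, rose (0.27, SE 0.056, adjusted p = 0.0192 by edgeR), yet it had at least 10.8 CPM in all 16 embryos. Kdm5d, another Y-linked demethylase gene, had 229 to 507 CPM in all 16, including those at or near 0 for Usp9y, and its slope of -0.04 did not pass (adjusted p = 0.983 by edgeR).

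The same regression was run in embryos that had SR1848. There 0 of 218 X-linked genes passed in experiment 1 and 0 of 270 in experiment 2 by edgeR, with 3 and 24 X-linked genes below 0 at an unadjusted p under 0.05 (DESeq2 was not run in these sets). Y-linked mRNA was lower in those embryos, at most 20.2 and 5.74 CPM, so the covariate spans less. Of the genes that fell in solvent embryos, 16 of 27 and 20 of 35 that could be tested had slopes below 0. In a test of the difference of slopes in experiment 1 (solvent minus SR1848), Kif4 was the only X-linked gene of 374 to pass (-0.42, adjusted p = 0.0261 by edgeR), and the autosomal genes Slc13a2 and Npc1l1 passed as well. For the other X-linked genes a difference between solvent and SR1848 embryos was not shown.

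The share of maternal mRNA also differed between embryos, from 2.19% of counts in embryo 4 to 3.78% in embryo 1, with a median of 2.70%. By edgeR, 82 of 9041 genes outside the maternal list rose with that share (0.907%) and 19 fell (0.21%). Within the list, which makes up the share, 17 of 78 rose, among them Rfpl4 (slope 3.66), Bcl2l10 (3.49), Tcl1b1 (2.67) and Btg4 (2.65). Zfp981, a zinc finger gene outside the list, had 16.2, 57.4 and 193 CPM as its lowest, median and highest level and a slope of 4.26 log2 CPM per log2 of share (SE 0.631, adjusted p = 0.000596 by edgeR). Obox2, an oocyte homeobox gene, rose with a slope of 3.74 (6.52 to 159 CPM), and Golph3l (3.38), Ankrd27 (3.03), Hmgcll1 (2.93), Ptprr (2.93), Mfap2 (2.91) and Dclk2 (2.90) rose as well.

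Among genes that fell with the maternal share, Zswim5 had the steepest slope (-3.85, SE 0.97, adjusted p = 0.0483 by edgeR), with 3.83, 18.6 and 61.1 CPM. Sox13, a transcription factor (-3.01), Gls2, a glutaminase (-2.79), Pdcd6 (-2.63), Mtg2 (-2.33), the taurine transporter Slc6a6 (-2.21), Sdad1 (-2.03) and Cherp (-2.03) followed. The sum of the 82 and 19 genes moved with single embryos. It was 64 without embryo 2, 53 without embryo 4, 29 without embryo 5, 50 without embryo 8, 53 without embryo 10, 62 without embryo 11, 27 without embryo 14 and 60 without embryo 15. With the library total as a second covariate it was 23, and with DESeq2 314.

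No gene passed for the share of 2-cell mRNA, which ran from 0.51% to 0.879% of counts (median 0.692%), or for the library total. By edgeR these were 0 of 9081 genes (555 at an unadjusted p under 0.05, and 7 with DESeq2) and 0 of 9119 (913 unadjusted, and 72 with DESeq2). X-linked genes leaned towards lower levels in embryos with a higher 2-cell share, with slopes below 0 for 73.9% of them. The share was 49.7% for autosomal genes, and no gene of either kind passed. X-linked genes moved together with the Y-linked level, so their slopes are not independent. A link between X-linked genes and the 2-cell share was not tested.

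The measures of the embryos themselves were compared in 15 pairs. Ribosomal protein mRNA ran from 1.03% to 1.96% of counts and mitochondrial mRNA from 4.3% to 8.29%. The number of genes detected after thinning to 4715145 counts ran from 15630 to 16846. The strongest relation was a lower ribosomal protein share in embryos with a higher maternal share (Pearson's r = -0.54, permutation p = 0.0327, adjusted p = 0.338; Spearman's rho = -0.55, permutation p = 0.0283, adjusted p = 0.425). Without the 2 embryos farthest from the median maternal share r was -0.61. None of the 15 relations passed after adjustment.

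Gene pairs were read as descriptions in the 16 solvent embryos, where they were chosen, and then tested in the other embryos. The highest correlation was that of the pseudogenes Rps3a2 and Rps3a3 (r = 0.99, over 16 embryos). It held in embryos with SR1848, at r = 0.96 in experiment 1 and 0.98 in experiment 2 (permutation p = 1e-05 in both, the smallest the resamples can give; adjusted p = 0.000285). It was 0.98 without the 2 embryos farthest from the median. The pair match each other at 783 of 792 bases (98.9%), and near-identical copies share reads in any embryos. The test therefore cannot tell shared reads from mRNAs that vary together.

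Of the 10 pairs of highest r, that pair was the only one to pass with the same sign in either set. The X-linked genes Yy2 and Sat1 had r = 0.94 in solvent embryos, and 0.30 and 0.08 in SR1848 embryos of experiments 1 and 2. Plk1 and Cln8 had 0.92, and -0.14 and 0.22; Smpd1, an acid sphingomyelinase, and Nipal1 had 0.91, and -0.01 and -0.04. Yy2 and Pim2 (0.90), Fmr1nb and Gla, both X-linked (0.90), Nipal1 and Tnfsf13b (0.91), Fig4 and Tnfsf13b (0.90), Urgcp and Enpp3 (0.89) and Gpr160 and Enpp3 (0.88) made up the rest. The lowest were Slc6a6 and Pkd2l2 (-0.85), Rps3a1 and Tdpoz5 (-0.82), Plk2 and Cln8 (-0.82), Bhmt and Carmil1 (-0.81) and Grn and Pkd2l2 (-0.79). None of these 5 passed in the other embryos; Grn and Pkd2l2 came closest (-0.65 and -0.46, adjusted p = 0.164 and 0.218 by permutation).

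Many pairs rested on 1 or 2 embryos. The genes most like Sec1 were Prmt5 (r = 0.91), L3mbtl3 (0.89) and Urgcp (0.87). For Prmt5, an arginine methyltransferase, r was -0.05 without the 2 embryos farthest from the median of Sec1, and in SR1848 embryos of experiment 2 it was -0.67 (permutation p = 0.00035, adjusted p = 0.00665). Gli3 was most like Itgb4 (0.79), Zfp780b (0.79) and B3galt4 (0.78), which were 0.56, 0.47 and 0.09 without 2 embryos. Ints6l was most like Zfp874a (0.87), Runx1t1 (0.86) and the X-linked Dkc1 (0.85), and these stayed at 0.79, 0.88 and 0.81. Kank4 was most like Zbed4 (0.84), Adam10 (0.82) and Hadhb (0.82), and Calhm3 like Smchd1 (0.84), Sacm1l (0.72) and Vps13d (0.72). Rps3a2 was most like Rps3a3, then Sbno2 (0.85) and Snupn (0.79), which were 0.35 and 0.11 without 2 embryos.

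The 200 genes of highest spread were grouped by correlation, which placed 132 of them in 14 groups of at least 5 genes. Some groups were low together in 1 embryo. The genes were chosen for high spread, and those that owe it to the same embryo correlate through that value. Such groups therefore do not show that their genes vary together in the other embryos. For Urgcp and Enpp3, r was 0.89 and at its lowest 0.59 when 1 embryo was left out. Urgcp, Gpr160, Sec1, Enpp3 and S1pr2 led a group of 7 genes that stood at -5.48 (mean deviation from gene means, log2) in embryo 17 and between -0.65 and 1.11 in the rest. Zfp280c, Gemin4, Prss8, Eno1b and Nup62cl led 7 genes at -5.12 in embryo 3 and -0.44 to 1.02 elsewhere. Cyp2s1, Ppp1r3b, Fez2, Lcmt2 and Gpd2 led 9 genes at -4.79 in embryo 2 and -1.25 to 1.09 elsewhere. These members lie on several chromosomes. Zfp352, Carmil1, Ercc4, Stk3 and Apol7b led 18 genes at -3.79 in embryo 8 and -1.31 to 1.88 elsewhere. Among the 18 are several predicted genes of chromosome 2 that match Cwc22 at 96.86%. Such copies share reads, so the size of a group can overstate how many separate genes vary together.

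Other groups were low in more than 1 embryo. Tuba3b, Eif5a2 and Triml2 led 5 genes at -5.6 in embryo 12 and -2.31 in embryo 11. Arhgap8, Supt16 and Gal3st2 led 5 genes at -5.03 in embryo 7, -2.21 in embryo 1 and -1.58 in embryo 5. Pramef25 and 8 predicted genes of chromosomes 4 and 7 stood at -4.18 in embryo 15, -1.87 in embryo 5 and -1.85 in embryo 18. All of these genes have near-identical copies, which share reads. Tfpi, Zfp472, Ddx4, Ccdc32 and Itgal led 12 genes low in embryos 10 (-4.78) and 8 (-2.61), of which 6 were copies of 1 family on chromosome 11. Elovl6, Rtn2, Plbd1 and Slc6a6 were low in embryos 10 (-3.06) and 19 (-2.03). Tnfsf13b, Smpd1, Gla, Zfp874a and Nipal1 led the largest group, 27 genes with 7 on X, which were low in embryos 2 (-2.44) and 19 (-2.34).

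A few groups varied over many embryos. Bcl2l10, Rfpl4, Btg4, Tcl1b1 and Zfp981 led 9 genes, 5 of them in the maternal list, that were high in embryos 1 (1.51) and 3 (1.48) and low in embryos 4 (-1.29), 8 (-1.14) and 14 (-1.01), with a mean r of 0.73. Timm8a1, Pim2, Yy2, Sat1 and Tex11 led 9 genes, of which 5 are X-linked, from -2.41 in embryo 5 to 1.66 in embryo 8. The 9 include the Rplp0 copies Gm8730 and Gm9625, which match each other at 97.9%. They also include Gm9797 of chromosome 10, which matches Timm8a1 at 100% over 612 bases. Such copies share reads, so these members are not all separate genes. Epm2a, Myo3a, Usp17lb and Cpeb2 were low in embryo 1 (-2.25) and 1.67 in embryo 17. A set of 5 predicted genes ran from -2.42 in embryo 5 and -1.84 in embryo 18 to 1.66 in embryo 14 and 1.73 in embryo 8. Those of the set on chromosome 11 are near-identical copies of 1 family, which share reads. Principal components were computed on a larger set of genes than the 200 that were grouped. The first 3 components held 17.3%, 10.9% and 9.58% of the variance of that larger set.

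**Figure D5:**
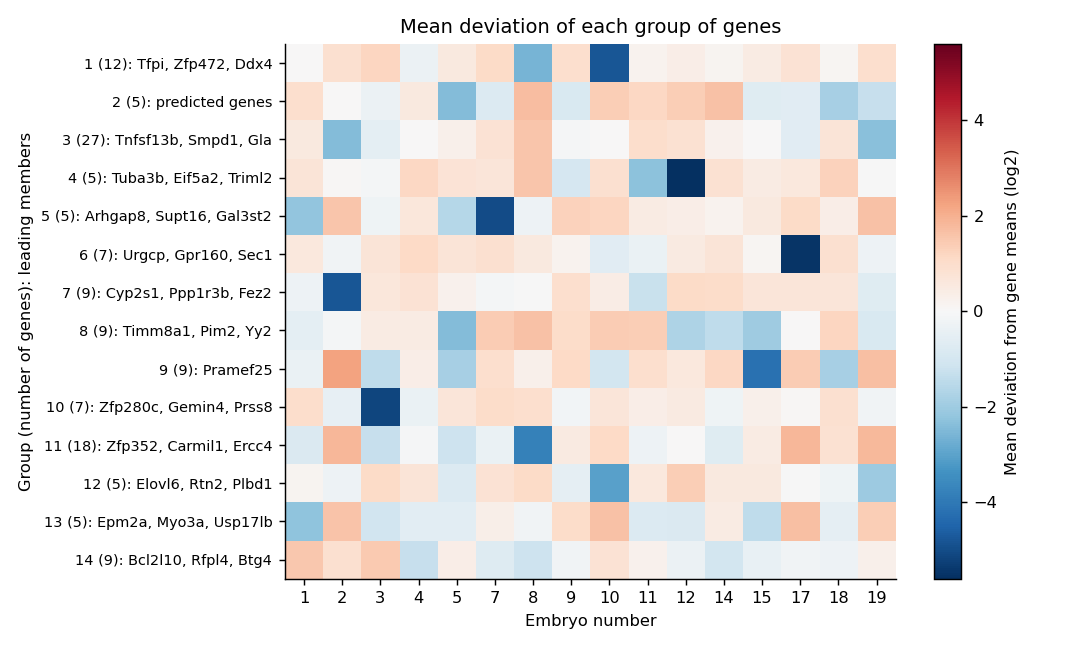
Mean deviation from gene means (log2, color) of 14 groups of genes (rows, with the number of genes and leading members) in each of 16 embryos (columns). Dark blue cells mark groups low in single embryos, such as -5.48 in embryo 17 and -5.12 in embryo 3, while the maternal group in the last row runs from -1.29 to 1.51.

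Spread was partly shared with embryos that had the inhibitor. Across genes measured in both sets, the distance from the trend had a rho of 0.16 with SR1848 embryos of experiment 1 (5654 genes) and 0.21 with those of experiment 2 (5933 genes); genes are not independent replicates. Of the genes of high spread in solvent embryos that were measured there, 19 of 100 (19%, against 3.96% of all genes) and 37 of 110 (33.6%, against 3.46%) were also of high spread. Of the 239 genes of high spread in solvent embryos, 35.6% have near-identical copies, which share reads in any embryos. The overlap was not split by copies.

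Spread itself was compared between the 16 solvent embryos and the 16 SR1848 embryos of experiment 1, as the absolute deviation from the group median (limma, Benjamini-Hochberg adjustment over 7587 genes). Solvent embryos were wider for 144 genes (1.90% of those tested) and narrower for 752 (9.91%). Levels differed as well: 695 of the 752 narrower genes had the higher mean in solvent embryos, and 137 of the 144 wider ones the lower mean. Among 2337 genes with means within 1 on the log2 scale, 1 was wider and 9 narrower.

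Genes of nucleolus and ribosome biogenesis were narrower in solvent embryos in 22 of 51 cases and ribosomal proteins in 21 of 76. Spliceosome genes were narrower in 11 of 37, and none in these lists was wider. The share of narrower genes over all those tested was 9.91%. Nuclear oxidative phosphorylation genes were narrower in 4 of 42 cases, and maternal transcripts in 2 of 76, with 3 wider. These counts were not matched for level, and genes were filtered on the mean over both groups. A gene could pass that filter through the group where it is high. For genes near the lowest level in 1 group, the test cannot tell a difference in spread from one in level. Obox6 had an SD of 0.17 in solvent embryos against 2.74 in SR1848 embryos (difference in absolute deviation -2.08, adjusted p = 0.00271 by limma), with means of 9.47 and 0.25 log2 CPM. Wdr4, a tRNA methylation cofactor (-2.23), Umps of pyrimidine synthesis (-2.12), Snapc2, Rabgef1, Tmem129, Ankrd54 and Zbtb43 were the other narrower genes named. All had means of 5.84 or more in solvent embryos and 0.99 or less in SR1848 embryos. Pim2 was wider in solvent embryos, with an SD of 1.89 against 0.64 (1.25, adjusted p = 0.0137 by limma) at means of 3.93 and 4.69 log2 CPM. Stat6, Bivm, Anxa6, Ikbkb, Nckap1l, Msrb3 and Kcng4 were the other wider genes named, all with means of 1.72 or less in solvent embryos and 4.66 or more in SR1848 embryos.

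Of the genes with means within 1, Bcat1, which breaks down branched amino acids, was wider in solvent embryos (mean absolute deviation 0.889 against 0.167, adjusted p = 0.0206 by limma). Fnta (0.384 against 1.68), Wtap of the RNA methylation complex (0.363 against 1.55), Kctd13, Mlf2, Fdft1 of sterol synthesis, Psmd3 of the proteasome, Rhot1, Pole4 and Zfand6 were narrower.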

How the data were processed

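The deposited table holds the estimated counts (expected counts) that kallisto gave the authors for 119358 transcript entries, per the file headers; 26.3% of its values were not whole. Per the submitters' processing notes, bcl2fastq, Trim Galore 0.6.2, kallisto 0.46.1, R 3.5.1 and DESeq2 1.32.0 were used, with builds mm10 and hg19; the sources used here do not give the role of hg19. A second table, the authors' deposited comparison of SR1848 with NR5A2 mRNA against SR1848, holds mean counts over size factors (a signal), a log2 fold change, its standard error (given as a score) and p-values, per the file headers; only its pairing of transcripts with genes was used.

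Gene identifiers came from GENCODE M21 (GRCm38) for 116682 entries and from that table for 892 more. Another 1779 entries, with 0.711% of counts of the 16 embryos, were not paired, and 5 added entries (B1 and B2 SINE, GFP in 2 entries and an Nr5a2 sequence; 0.00865%) were kept apart. Column prefixes were matched to groups by their replicate numbers: ComS was read as SR1848. The kit keeps no strand, so overlapping genes share reads, as do near-identical copies. Xist and other genes outside the sums are not analysed here.

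Counts were summed by gene, rounded and scaled by TMM (edgeR 4.0.16 in R 4.3.3); log2 CPM used a prior count of 1. TPM were computed from the counts and the annotated transcript lengths. The trend of log2 variance on mean was a loess fit (span 0.3) over genes with a mean of at least 3. Regressions used edgeR's quasi-likelihood test with filterByExpr and Benjamini-Hochberg adjustment at 0.05. Spread between groups used limma 3.58.1 on absolute deviations from the group median. DESeq2 1.42.0 was an alternative. Correlations used 2-sided permutation tests with 100000 resamples, adjusted over 15 relations or 57 tests of pairs. Groups came from average-linkage clustering on 1 minus r, split at 0.5. Copies were found with blastn 2.17.0 (at least 95% identity over 200 bases and 50% of the transcript). The scripts were tested on simulated data.

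Named genes were chosen by rule: the 15 of highest TPM among nuclear genes, the 15 of highest and 10 of lowest spread, the extremes of each list, the 8 largest slopes or differences in each direction, and the pairs and groups given; predicted, Rik and pseudogene symbols were only counted. Genes with gaps and the partners of Y-linked genes were chosen after their values were seen. The embryos, lists and tests were chosen with earlier results of these data known.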

Additional observations from a re-analysis of the deposited data

Results flagged for a closer look

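Sequences added to the transcript set gave a signal in data outside the main measurement. The B1 and B2 SINE repeat entries had medians of 7.01 CPM (2.88 to 14.7) and 8.05 CPM (2.1 to 13.8) over the 16 solvent embryos, and each was above 3 counts in all 16. A separate entry for the Nr5a2 gene sequence had a median of 59.9 CPM (28.3 to 176), beside 115 CPM for the Nr5a2 gene. A first GFP entry reached 0.765 CPM; it had a count in 7 embryos and more than 3 counts in 2, while the second GFP entry was at 0 in all 16.

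The slope on the Y-linked level differed between solvent and SR1848 embryos of experiment 1 for 3 genes by edgeR's test of the difference (solvent minus SR1848). They were Slc13a2, a dicarboxylate transporter (-1.43, adjusted p = 0.00148 by edgeR), Npc1l1, a sterol transporter (-1.80, adjusted p = 0.00148 by edgeR), and the X-linked Kif4 (-0.42, adjusted p = 0.0261 by edgeR). At an unadjusted p under 0.05 the slope was lower in solvent embryos for 31 of 374 X-linked genes (8.29%) and 163 of 11384 autosomal genes (1.43%).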

How the results depend on the processing

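Other scalings, and thinning to the shallowest embryo, moved no count of genes by over 1.5 times; the filter, the embryos used, the tool and the library total as a covariate moved several. The number of genes of high spread ran from 228 to 252 and that of low spread from 1092 to 1164 when each embryo was left out in turn. With a mean of at least 5 they were 128 and 632, and without a filter 2882 genes had low spread. With all 19 solvent embryos, 3 of them shallow, they were 0 and 548. In that setting the distance changed sign for Arf4 (0.38), Rnf19b (0.23), Hnrnpf (0.73), Utp15 (0.43), Dppa5a (-0.27), Gja1 (-0.42), Obox6 (0.67), mt-Co3 (0.49), Hspa9 (0.97), Cdk1 (0.57), Psmb2 (0.24), Fgf4 (0.59), Xlr3a (0.35) and Ldhc (0.24). So did the slopes on the maternal share of Mtg2 (0.22) and Slc6a6 (0.61). With the median absolute deviation Rps3a3 stood at -0.32. Without 2 embryos the pair of Sec1 and Prmt5 was at -0.052, and the median r of the gene pairs was 0.77.

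Genes that follow the 2-cell share numbered 7 with DESeq2, 90 without a filter and 2945 with all 19 embryos. For the maternal share they were 314, 356 and 1961, with 23 when the library total was a second covariate and 27 to 120 when each embryo was left out. For the library total they were 72, 19 and 2630, and for the Y-linked level 81 with DESeq2, 89 without a filter and 26 to 44 when each embryo was left out. With all 19 embryos, r was 0.90 for library total and 2-cell share, 0.89 for library total and ribosomal protein share, 0.79 for genes detected and ribosomal protein share, 0.93 for 2-cell and ribosomal protein share and 0.94 for 2-cell and mitochondrial share. The cause of these changes was not tested.

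The difference in spread between solvent and SR1848 embryos was called for 398 genes with a replicate block, 300 with a mean of at least 5, 0 with all 19 and 17 embryos, and 10 among genes with means within 1. With the replicate block Anxa6, Msrb3, Nckap1l, Pim2 and Stat6 were no longer called. The numbers do not pair the embryos: none of 13 shared numbers had a correlation over 0.1 (-0.03 to 0.07), and 3 solvent embryos correlated best with their own number. The shares of TPM without mitochondrial genes were 5.68% for the 10 and 21.0% for the 100 highest genes. Over single named genes and pairs, 1977 values kept direction and side of the threshold, 208 lost the threshold, 7 passed it, 17 moved and 18 changed sign.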
